A study of Mus musculus with 15 samples.

Results

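Imprinted genes are transcribed mainly from the copy inherited from one parent, and a group of them acts on body size before and shortly after birth. The 10 described here were taken from that group by name, not by their values: H19, Igf2, Dlk1, Meg3, Rian, Mirg, Mest, Peg3, Plagl1 and Grb10. All 10 were found by identifier and symbol among the 39179 genes counted in quadriceps muscle of 15 C57BL/6 mice. The mice carried either the wild-type gene for the mitochondrial ribosomal protein Mrps5 or the V338Y mutation on both copies, a misreading mutation of the mitochondrial ribosome. At 3 mo each genotype had 4 mice, at 19 mo wild type had 3 and V338Y had 4, and no treatment was given. The comparisons ask how the genes differ with age within each genotype, how they differ between the genotypes at each age, and whether the age difference depends on the genotype.

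Igf2 encodes a fetal growth factor, and H19, its neighbor on chromosome 7, is a noncoding RNA made from the maternal copy. Both are driven by shared enhancers, and a methylated control region between them decides which copy of each gene is used. On chromosome 12, Dlk1 encodes a membrane protein that restrains adipocyte differentiation, while Meg3, Rian and Mirg are noncoding RNAs of the maternal copy that carry many small RNAs. Peg3 and Plagl1 encode zinc-finger proteins, Mest a member of the hydrolase family, and Grb10 an adaptor that dampens insulin and IGF signaling. Several of these genes are known to be switched down in most organs after birth, and skeletal muscle is known to keep H19. The counts used here add both parental copies together and say nothing of imprinting itself.

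Total counts ran from 8250653 to 18968132 per mouse. Muscle fiber genes, among them Ckm and Acta1, summed to between 194000 and 356000 CPM, the counts scaled to a common library size. The age groups differed in sex markers in both genotypes. All old mice had Xist, transcribed from the inactive X, at 502 CPM or more, and no young mouse exceeded 0.586 CPM. The Y-linked Ddx3y was at 166 CPM or more in every young mouse and never above 0.0813 CPM in an old one, although the study's methods describe the 3 mo mice as female. Age and sex therefore cannot be told apart in any comparison between the ages. Mrps5 itself was at 21.1 to 27.3 CPM at 3 mo and 14.8 to 19.3 CPM at 19 mo, and its RNA level does not check a point mutation. In whole muscle, fewer cells of a type and less RNA per cell cannot be told apart.

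The 10 genes stood at very different levels. On a scale of CPM per kilobase of exon, which allows genes to be compared, H19 was the most abundant in each of the 15 mice, with a median of 64.2 and a range of 45.0 to 218. Peg3 followed at a median of 6.55 and Grb10 at 6.37. These neighbors overlapped, and Peg3 was the higher in 9 of the 15 mice. Igf2 came next at 1.22, below Grb10 in all 15 mice. It overlapped Mest, the next below, and was the higher in 13 of the 15 mice. Mest (0.414), Mirg (0.329), Plagl1 (0.252) and Meg3 (0.144) formed a low tier in which each overlapped the next. Dlk1 (chr12:109452823-109463336, plus strand of GRCm38) and Rian (chr12:109603940-109661716, plus strand) were at 0 counts in all 15 mice, which at these depths allows up to 0.176 to 0.342 CPM per mouse by counting error alone. None of the 19 genes annotated within Rian had a count either. The low tier rested on few reads, with 10 to 81 counts per mouse for Mest, Mirg, Plagl1 and Meg3.

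**Figure D1:**
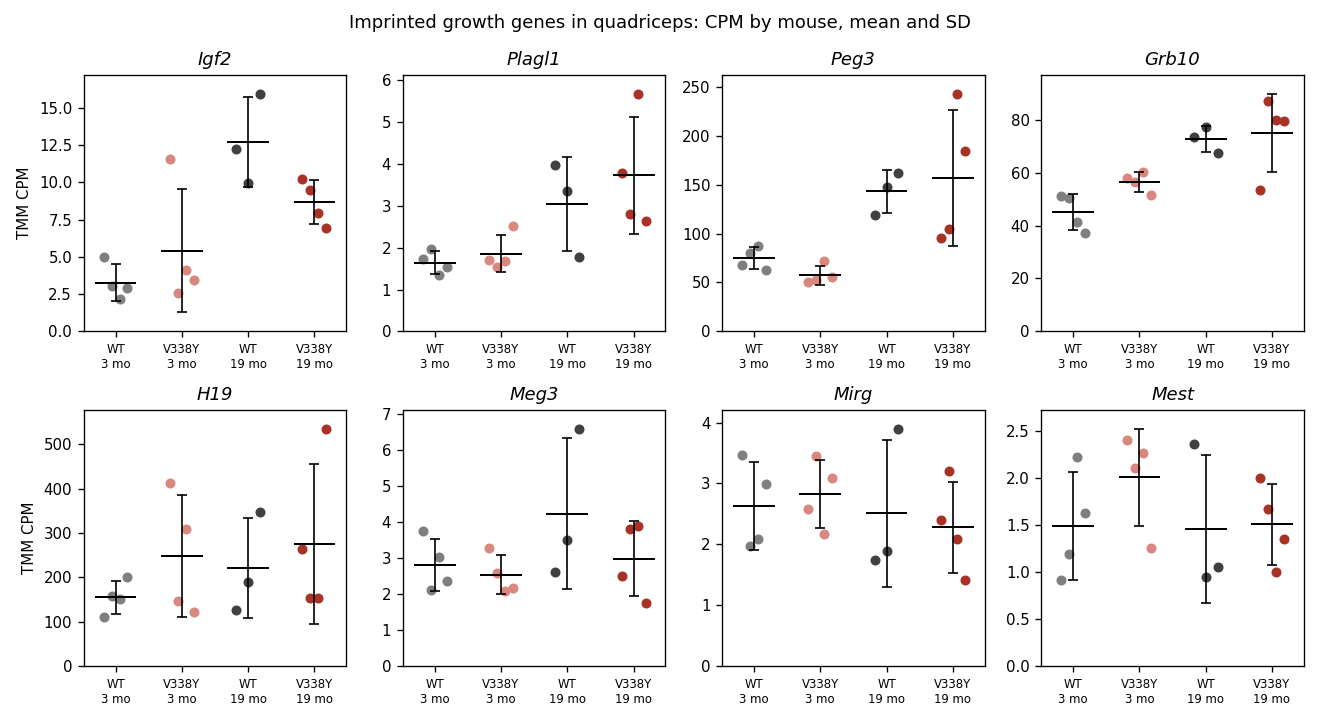
CPM (normalized by TMM) on the vertical axis for the 8 members with counts, in each mouse (points) of the 4 groups on the horizontal axis, with the group mean and SD as lines. Igf2, Plagl1, Peg3 and Grb10 in the top row lie mostly higher at 19 mo, while H19, Meg3, Mirg and Mest in the bottom row overlap between all groups.

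With age, 4 of the 8 members that could be tested rose in wild-type muscle and none fell. Those were Igf2, Peg3, Grb10 and Plagl1. In V338Y muscle 3 of the 8 rose, Peg3, Plagl1 and Grb10, and none fell. Over all genes tested, 36.2% were called in the former and 46.9% in the latter, with 18.3% and 24.4% called higher. The median log2 fold change of the 8 was 0.66 in wild-type mice, against 0.02 for all genes, and 0.34 in V338Y mice, against 0.07. The members' counts are to be read against these shares, and no test of the list as a whole was run.

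Peg3 (chr7:6703892-6730431, minus strand), a DNA-binding zinc-finger protein linked to growth and muscle progenitors, showed the clearest age difference. In wild-type mice it was counted at 67.9, 80.2, 87.3 and 63.2 CPM at 3 mo and at 119, 148 and 162 CPM at 19 mo. In V338Y mice the values were 50.5, 52.4, 71.7 and 55.1 CPM at 3 mo and 95.5, 105, 243 and 184 CPM at 19 mo. Every 19 mo mouse lay above every 3 mo mouse of its genotype, and of all genes 43.2% (wild type) and 42.1% (V338Y) had no overlap in one direction or the other. The log2 fold change was 0.96 ± 0.14 (SE) in wild-type mice (edgeR adjusted p = 0.00145) and 1.48 ± 0.29 in V338Y mice (edgeR adjusted p = 0.0028). At 19 mo the V338Y mice were far more spread than the wild-type mice, with mice 4 and 5 high and mice 2 and 3 low.

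Its promoter sequence is shown because Peg3 held its call in every alternative fit, and because it shares a rare stretch with Meg3. The RefSeq table of 250 bases before to 50 bases after each start gives it in build GRCm38.p6 at chr7:6730370-6730669 on the minus strand, and Meg3 at chr12:109540746-109541045 on the plus strand. Capitals mark the cyclic AMP response element TGACGTCA, which reads the same on both strands and was chosen after the sequences had been read. It occurs in 1.79% of the 32851 windows of this length.
Peg3: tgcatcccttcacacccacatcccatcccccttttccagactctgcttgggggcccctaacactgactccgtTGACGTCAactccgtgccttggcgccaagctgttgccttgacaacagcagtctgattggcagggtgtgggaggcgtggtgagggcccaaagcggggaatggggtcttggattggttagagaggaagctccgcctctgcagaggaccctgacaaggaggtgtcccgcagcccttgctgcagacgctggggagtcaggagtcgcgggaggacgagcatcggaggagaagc
Meg3: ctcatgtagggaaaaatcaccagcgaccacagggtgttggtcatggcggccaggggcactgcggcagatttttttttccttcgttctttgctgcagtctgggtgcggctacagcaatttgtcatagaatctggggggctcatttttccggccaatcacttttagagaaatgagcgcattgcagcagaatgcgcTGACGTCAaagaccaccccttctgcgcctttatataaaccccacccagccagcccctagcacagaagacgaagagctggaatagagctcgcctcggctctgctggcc
The letters stand in both windows, yet Meg3 did not pass the test with age, and a match of letters is not a bound site.

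Grb10 (chr11:11930508-12038683, minus strand) also rose in both genotypes. Wild-type mice had 51.2, 50.3, 41.5 and 37.2 CPM at 3 mo and 73.6, 77.1 and 67.3 CPM at 19 mo, with no overlap. V338Y mice had 57.9, 56.6, 60.4 and 51.4 CPM at 3 mo and 53.4, 86.9, 80.1 and 79.6 CPM at 19 mo. Mouse 2 at 19 mo lay within the 3 mo values, and the other three lay above them. The rise was 0.71 ± 0.13 on the log2 scale in wild-type mice (edgeR adjusted p = 0.00308) and 0.43 ± 0.14 in V338Y mice (edgeR adjusted p = 0.0275). The V338Y call was lost in 5 of the 8 fits that left out 1 mouse, which kept a log2 fold change of 0.35 to 0.56.

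Plagl1 (chr10:13060504-13131694, plus strand), a zinc-finger regulator of other imprinted genes, was counted at only 16 to 64 reads per mouse. In wild-type mice it stood at 1.73, 1.97, 1.34 and 1.54 CPM at 3 mo and at 3.98, 3.35 and 1.79 CPM at 19 mo. In V338Y mice it stood at 1.70, 1.53, 1.68 and 2.51 CPM at 3 mo and at 3.79, 2.81, 5.68 and 2.64 CPM at 19 mo. The wild-type groups overlapped through mouse 5 at 19 mo, and the V338Y groups did not overlap. It rose by 0.91 ± 0.29 (log2) in wild-type mice (edgeR adjusted p = 0.0368) and 1.03 ± 0.30 in V338Y mice (edgeR adjusted p = 0.0193). These calls were not stable: leaving out 1 mouse ended the first in 5 of 7 fits and the second in 3 of 8, with adjusted p up to 0.136 and 0.0534.

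The promoters of Grb10 and Plagl1 are shown because both genes rose in both genotypes. GC content was 80.0% with 45 CG pairs at chr11:12037371-12037670 (minus strand) for the first Grb10 start and 70.7% with 26 CG pairs at chr10:13090582-13090881 (plus strand) for Plagl1, against medians of 52.7% and 7 over all windows. Capitals mark the GC box GGGCGG, searched on both strands, whose matches may overlap. It occurs in 35.7% of windows, 5 times in this Grb10 window and 2 times in that of Plagl1, and not in the Peg3 window. Every Mest window also holds it, and Mest was not called with age in either genotype. The other Grb10 start, at chr11:12027922-12028221, has a GC content of 52.3% with 9 CG pairs and no GC box, and the counts do not say which start was used.
Grb10: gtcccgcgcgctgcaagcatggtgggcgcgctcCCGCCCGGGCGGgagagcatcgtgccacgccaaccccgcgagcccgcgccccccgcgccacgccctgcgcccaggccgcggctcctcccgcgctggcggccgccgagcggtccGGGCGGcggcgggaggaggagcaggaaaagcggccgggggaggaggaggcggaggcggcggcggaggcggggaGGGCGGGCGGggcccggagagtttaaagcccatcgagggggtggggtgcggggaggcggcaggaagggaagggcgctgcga
Plagl1: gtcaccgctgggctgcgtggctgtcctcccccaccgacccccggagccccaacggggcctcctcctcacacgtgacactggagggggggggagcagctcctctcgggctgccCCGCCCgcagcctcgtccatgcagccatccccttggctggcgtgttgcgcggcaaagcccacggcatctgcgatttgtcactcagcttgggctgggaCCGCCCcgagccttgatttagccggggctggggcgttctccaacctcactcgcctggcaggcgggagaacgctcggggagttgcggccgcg

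Igf2 (chr7:142650766-142666816, minus strand) had the greatest age difference of the 8 in wild-type mice. It was counted at 5.01, 3.02, 2.15 and 2.90 CPM at 3 mo and at 12.2, 9.96 and 15.9 CPM at 19 mo, with no overlap between the ages. The log2 fold change was 1.99 ± 0.27, or 3.97-fold (edgeR adjusted p = 0.00088). In V338Y mice it was counted at 11.5, 2.59, 4.10 and 3.42 CPM at 3 mo and at 10.2, 9.50, 7.97 and 6.96 CPM at 19 mo. One young V338Y animal, mouse 1, lay above all of the old ones, and the other three lay below them. The log2 fold change was 0.66 ± 0.40 (edgeR adjusted p = 0.194). Without mouse 1 it was 1.36 (edgeR adjusted p = 0.00185), so a single library decides whether Igf2 is called in V338Y muscle. The age difference was smaller in V338Y than in wild-type mice by 1.35 ± 0.55 on the log2 scale, which did not pass the test of the interaction (edgeR unadjusted p = 0.0254, adjusted p = 0.48). Without V338Y mouse 1 at 3 mo the interaction was -0.62 (edgeR adjusted p = 0.564).

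RefSeq gives 4 start sites for Igf2, and gene counts do not say which was used. The window farthest downstream, at chr7:142657447-142657746 on the minus strand, is shown because it is the one that holds 2 GC boxes, marked in capitals.
Igf2: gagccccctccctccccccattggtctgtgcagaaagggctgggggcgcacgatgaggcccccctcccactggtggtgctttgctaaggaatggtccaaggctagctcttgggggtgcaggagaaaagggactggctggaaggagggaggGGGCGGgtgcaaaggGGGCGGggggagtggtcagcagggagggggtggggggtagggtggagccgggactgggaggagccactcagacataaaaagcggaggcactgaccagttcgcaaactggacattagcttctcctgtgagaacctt
The antisense gene Igf2os overlaps Igf2 and held at most 4 counts in any mouse, and the miRNA gene Mir483 within Igf2 held 0.

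**Figure D2:**
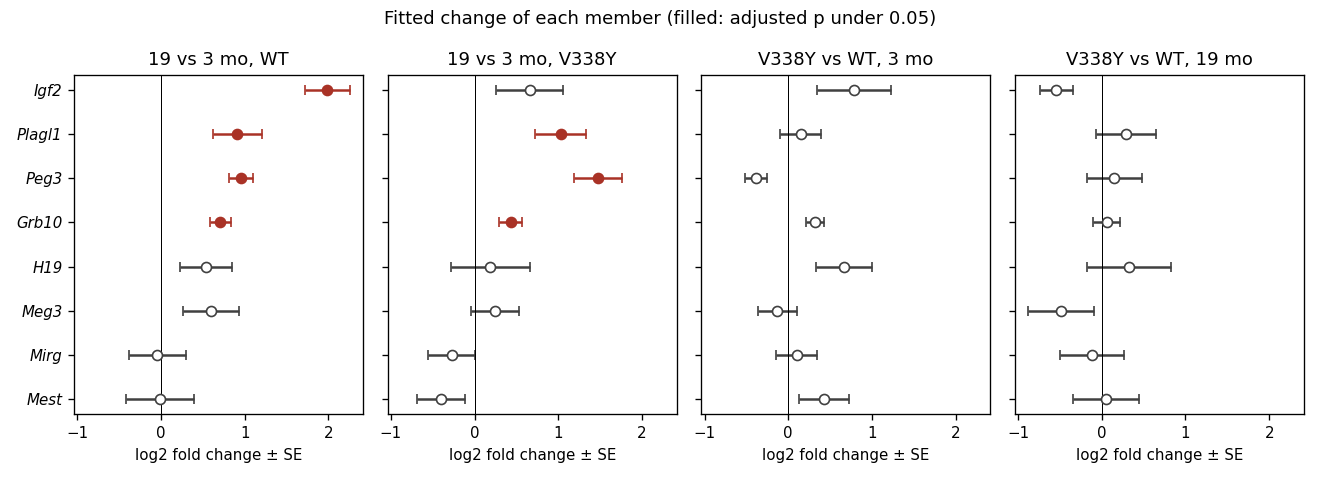
Fitted log2 fold change with its SE (horizontal axis) of the 8 tested members (vertical axis) in 4 comparisons, with filled points for an edgeR adjusted p under 0.05. The filled points are Igf2, Plagl1, Peg3 and Grb10 in aging wild-type mice and Plagl1, Peg3 and Grb10 in aging V338Y mice, and all points of both genotype panels are open.

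H19 (chr7:142575529-142578143, minus strand) varied more between mice of one group than between groups. Wild-type mice had 111, 158, 151 and 201 CPM at 3 mo and 126, 190.4 and 347 CPM at 19 mo. V338Y mice had 413, 146, 309.5 and 123 CPM at 3 mo and 263, 153, 153 and 535 CPM at 19 mo. The log2 fold change with age was 0.54 ± 0.31 in wild-type mice (edgeR adjusted p = 0.202) and 0.19 ± 0.47 in V338Y mice (edgeR adjusted p = 0.761). One library moved the wild-type value in either direction: it was 0.82 without mouse 2 at 19 mo (edgeR adjusted p = 0.0411) and 0.04 without mouse 5 at 19 mo (edgeR adjusted p = 0.907). The groups overlapped in every comparison.

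H19 is also the host of a microRNA. An exon of it contains the hairpin of Mir675 (chr7:142577064-142577147, minus strand), which the deposited tables list as a gene of its own. The sequences are shown because these 84 bases took a steady share of the reads of the locus. In the hairpin, from the RefSeq table in build GRCm38.p6, capitals mark both mature miRNAs, and in the mature sequences they mark the seed, bases 2 to 8.
Mir675 hairpin: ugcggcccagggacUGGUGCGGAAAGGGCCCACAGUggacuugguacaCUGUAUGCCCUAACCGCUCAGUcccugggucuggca
miR-675-5p: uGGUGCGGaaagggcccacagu
miR-675-3p: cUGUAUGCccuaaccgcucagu
The Mir675 gene held 95 to 888 counts per mouse, between 8.22% and 11.3% of the H19 count, with a median of 9.65%. The hairpin covers 3.41% of the exon length of H19. The counts come from a library for long RNA, so they do not measure the mature miRNAs of 22 bases, and reads that lie in both genes were divided between them by estimation. Adding them to H19 changed its log2 fold changes by little, to 0.55 with age in wild-type mice (edgeR adjusted p = 0.198) and to 0.21 in V338Y mice (edgeR adjusted p = 0.736). Neither mature seed is carried by any other mature miRNA in the table of 1679.

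Some genes of immature or regenerating fibers, picked out after their values had been seen, were high in mice that were high in H19, and others were not. Myh3, the embryonic myosin heavy chain, was at 24.7 CPM in V338Y mouse 1 at 3 mo, against 0.342 to 2.01 CPM in the other 7 young mice. At 19 mo it was at 13.03 CPM in V338Y mouse 5 and at 9.92 CPM in wild-type mouse 5, against 2.01 to 4.22 CPM in the other 5 old mice. Those animals held the highest H19 values of their groups. In young wild-type mice the order was not the same, since mouse 4 led in H19 and mouse 3 in Myh3. Mymk, which fuses myoblasts, was at 0.821 CPM in V338Y mouse 1 at 3 mo, 1.03 CPM in V338Y mouse 5 and 0.325 CPM in wild-type mouse 5 at 19 mo, and at most 0.218 CPM elsewhere. Chrng, the fetal acetylcholine receptor subunit, was at 1.52 CPM in V338Y mouse 1 at 3 mo and at 1.10 CPM in V338Y mouse 5 at 19 mo, but also at 1.30 CPM in V338Y mouse 2 at 19 mo, whose H19 was 263 CPM, and at 0.163 CPM in wild-type mouse 5 against 0.873 CPM in wild-type mouse 4. Myh8, the perinatal myosin heavy chain, was at 28.3 CPM in V338Y mouse 1 at 3 mo, but V338Y mouse 5 at 19 mo had the lowest value of the old mice, 5.67 CPM against 6.22 to 10.5 CPM. Myf5, an early myogenic factor, was also lowest there, at 0.774 CPM. V338Y mouse 5 at 19 mo further stood out for Mki67, a proliferation marker, at 84.1 CPM against 3.39 to 6.09 CPM in the other three of its group. Fiber genes, picked out in the same way, also set apart V338Y mouse 5 and wild-type mouse 5 at 19 mo. Myh2, the myosin heavy chain of type IIA fibers, was at 4896 and 4172 CPM, against 243 to 873 CPM in the other old mice. Mb, myoglobin, was at 1917 and 1393 CPM, against 223 to 728 CPM. V338Y mouse 1 at 3 mo did not stand apart in Myh2, at 560 CPM against 378 to 883 CPM in the other young mice. The part of these genes' cells and fibers in the H19 values was not tested.

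**Figure D3:**
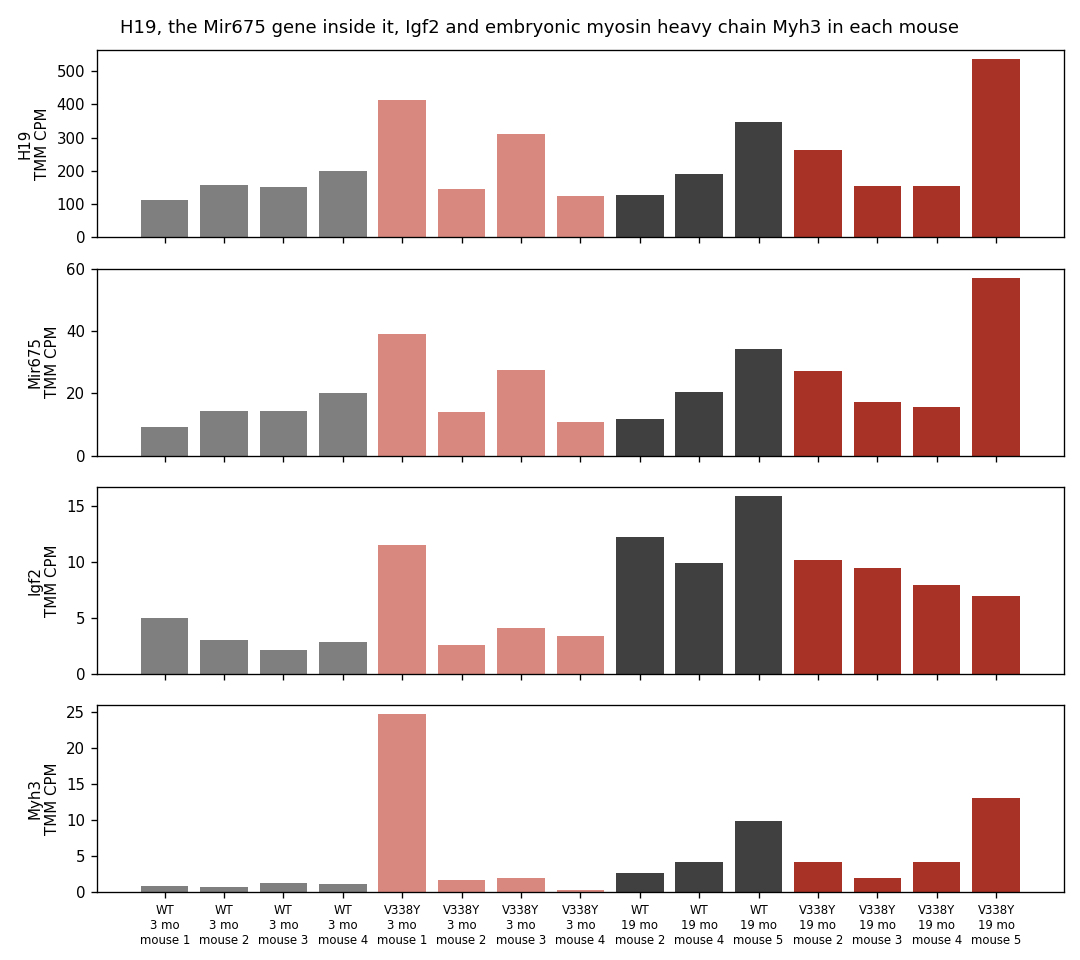
CPM (vertical axes, from 0) of H19, of the Mir675 gene within it, of Igf2 and of Myh3 in each of the 15 mice (horizontal axis), colored by group. H19 and Mir675 rise and fall together from mouse to mouse, and the tallest H19 bars, 413 and 535 CPM in V338Y mice, stand over the tallest Myh3 bars, 24.7 and 13.03 CPM, while Igf2 is raised in the first of these mice only.

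The noncoding RNAs of chromosome 12 were low and passed no test with age. Meg3 (chr12:109541001-109571726, plus strand) was at 2.11 to 3.74 CPM in wild-type mice at 3 mo and at 2.61, 3.49 and 6.58 CPM at 19 mo. In V338Y mice it was at 2.09 to 3.28 CPM at 3 mo and at 1.74 to 3.88 CPM at 19 mo. Its log2 fold change was 0.60 ± 0.34 in wild-type mice (edgeR adjusted p = 0.184) and 0.25 ± 0.29 in V338Y mice (edgeR adjusted p = 0.504). Without wild-type mouse 5 at 19 mo the first was 0.13. Mirg (chr12:109729764-109749460, plus strand) ranged from 1.42 to 3.90 CPM over all mice, with log2 fold changes of -0.05 ± 0.34 and -0.27 ± 0.28 (edgeR adjusted p = 0.929 and 0.437). All groups overlapped for both RNAs.

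Mirg is the host of 14 miRNA hairpins in the RefSeq table, with 26 mature miRNAs. The 13 of these hairpins that the files list on its strand held 93 counts in all mice together, against 480 for Mirg. Only one pair among the mature miRNAs shares a seed, shown in capitals, and it is printed for that reason.
miR-453: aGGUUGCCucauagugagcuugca
miR-496a-5p: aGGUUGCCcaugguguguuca

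Within groups, Meg3 and Mirg deviated together. After the group means had been taken from log2(CPM + 0.5), Pearson's r over the 15 mice was 0.733 (permutation p = 0.0204, adjusted p = 0.0408 over 2 pairs) and Spearman's rho 0.739 (permutation p = 0.0142). Without the 2 mice farthest from the median of Meg3, r was 0.699. Both were counted from the same libraries, and the relation was past the threshold in only 6 of the 15 sets that left out 1 mouse, where r ran from 0.580 to 0.796 and the adjusted p up to 0.186. It was lowest without wild-type mouse 5 at 19 mo, the mouse with the highest value of both RNAs. For the neighbors H19 and Igf2, r was 0.345 (permutation p = 0.343) and rho 0.271 (permutation p = 0.399). That r was 0.233 without the 2 mice farthest in H19 and -0.017 without V338Y mouse 1 at 3 mo. The pairs with Dlk1 or Rian could not be computed, since these genes were at 0.

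**Figure D4:**
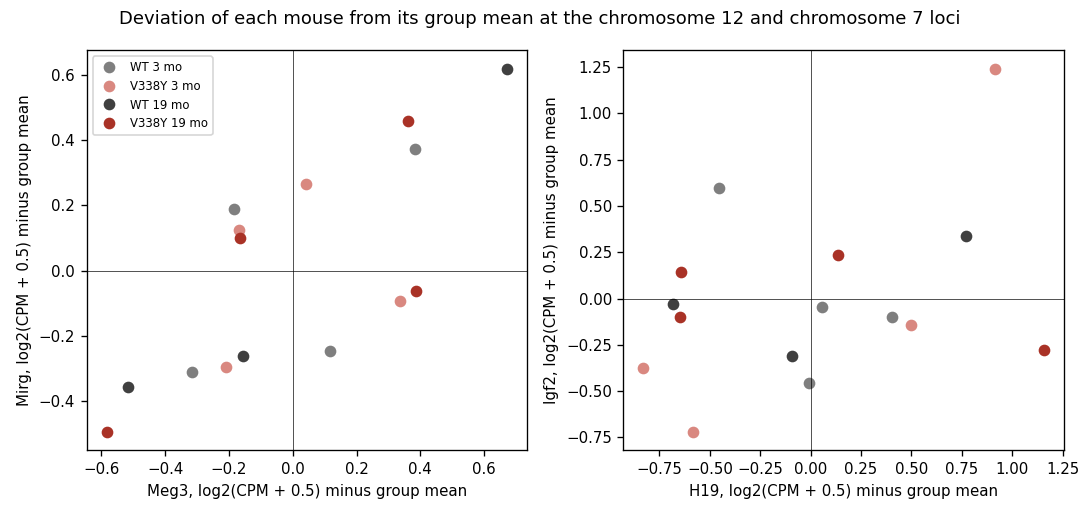
Deviation of each mouse from its group mean on the log2(CPM + 0.5) scale for Mirg against Meg3 (left) and Igf2 against H19 (right), colored by group. The points of the left panel lie along a rising line (r = 0.733, 15 mice), and those of the right panel scatter (r = 0.345).

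Mest (chr6:30723547-30748465, plus strand) was counted at 10 to 41 reads per mouse. It ranged from 0.911 to 2.40 CPM, with the groups overlapping throughout. The log2 fold change with age was -0.01 ± 0.41 in wild-type mice (edgeR adjusted p = 0.99) and -0.40 ± 0.29 in V338Y mice (edgeR adjusted p = 0.27). Its 3′ end overlaps Copg2 on the opposite strand, which held 143 to 372 counts per mouse, and how strand was treated in counting is not given in the sources used here. The miRNA gene Mir335 in an intron of Mest held 0 counts.

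Between the genotypes, no member passed the test at either age. At 3 mo 0 of 8 were called, where 0.075% of all genes were, and 2 had an unadjusted p under 0.05, as had 1293 of the 13333 genes tested. Those were Peg3, at a log2 fold change of -0.39 ± 0.13 in V338Y against wild-type mice (edgeR unadjusted p = 0.0127, adjusted p = 0.422), and Grb10, at 0.32 ± 0.11 (edgeR unadjusted p = 0.0131, adjusted p = 0.422). The 4 V338Y values of Grb10 lay above the 4 wild-type values, as those of 4.71% of all genes did not overlap, but the gap was narrow, 51.4 against 51.2 CPM. H19 was at 0.67 ± 0.33 and Igf2 at 0.78 ± 0.44 (edgeR adjusted p = 0.552 and 0.603). Without V338Y mouse 1 the latter were 0.31 and 0.06. DESeq2 called 0 of the 8 as well.

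At 19 mo 0 of 8 were called, where 0.0434% of all genes were, and 1 had an unadjusted p under 0.05, as had 1235 of the 13833 genes tested. It was Igf2, at -0.54 ± 0.19 (edgeR unadjusted p = 0.0222, adjusted p = 0.537), with a mean of 12.7 ± 3.01 CPM (SD, n = 3) in wild-type and 8.66 ± 1.46 CPM (SD, n = 4) in V338Y mice. The wild-type mice were at 9.96 to 15.9 and the V338Y mice at 6.96 to 10.2 CPM, which overlap. Without wild-type mouse 5 the log2 fold change was -0.34. The remaining 7 had adjusted p of 0.726 to 0.984 by edgeR. In this comparison deviations of same-numbered mice correlated at 0.137 to 0.41 (mean 0.262), within the -0.417 to 0.487 of differently numbered mice (mean -0.084). With mouse number as a block the genes called over the whole table went from 6 to 110, while no member was among them. That difference rested on mice 2, 4 and 5, since V338Y mouse 3 had no wild-type mouse of its number. Blocked, Igf2 was at -0.58 (edgeR adjusted p = 0.204), H19 at 0.48 and Grb10 at -0.030, and the adjusted p of the other members ran up to 0.934. DESeq2 called 0 members. For the interaction of age and genotype 0 of 8 were called by edgeR or DESeq2, where 0% of all genes were by edgeR, and Igf2 alone had an unadjusted p under 0.05. A p above the threshold with 3 or 4 mice per group does not show that the genotypes were alike.

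Other imprinted genes were read from a list of 57, of which 51 were found in the files and Rtl1 and Ins2, neighbors of Meg3 and Igf2, were at 0 in all mice. With age, 9 of 33 tested rose and 2 fell in wild-type mice, and 10 of 34 rose and 7 fell in V338Y mice, beside backgrounds of 18.3% higher and 17.8% lower, and 24.4% higher and 22.5% lower. Their median log2 fold changes were 0.07 and 0.06, close to those of all genes. Peg10, a retrotransposon-derived gene of the placenta, went from 0.767 to 2.17 CPM in young to 4.39 to 7.07 CPM in old mice, a log2 fold change of 2.06 ± 0.24 in wild-type (edgeR adjusted p = 0.000486) and 2.14 ± 0.30 in V338Y mice (edgeR adjusted p = 0.00055). Ampd3, the AMP deaminase of red cells that atrophying muscle induces, rose by 2.01 ± 0.23 and 2.02 ± 0.36. Airn, the antisense RNA of the Igf2r locus, rose by 0.81 in both. Slc38a4, an amino acid transporter, fell by 1.35 in wild-type and by 1.83 in V338Y mice. Nap1l4 fell by 0.57 and 0.60, and Cdkn1c, a cell cycle inhibitor that limits fetal growth, was at -0.52 (edgeR adjusted p = 0.0532) and at -0.68 (edgeR adjusted p = 0.00229). No gene of the list passed a genotype test or the interaction by edgeR.

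**Figure D5:**
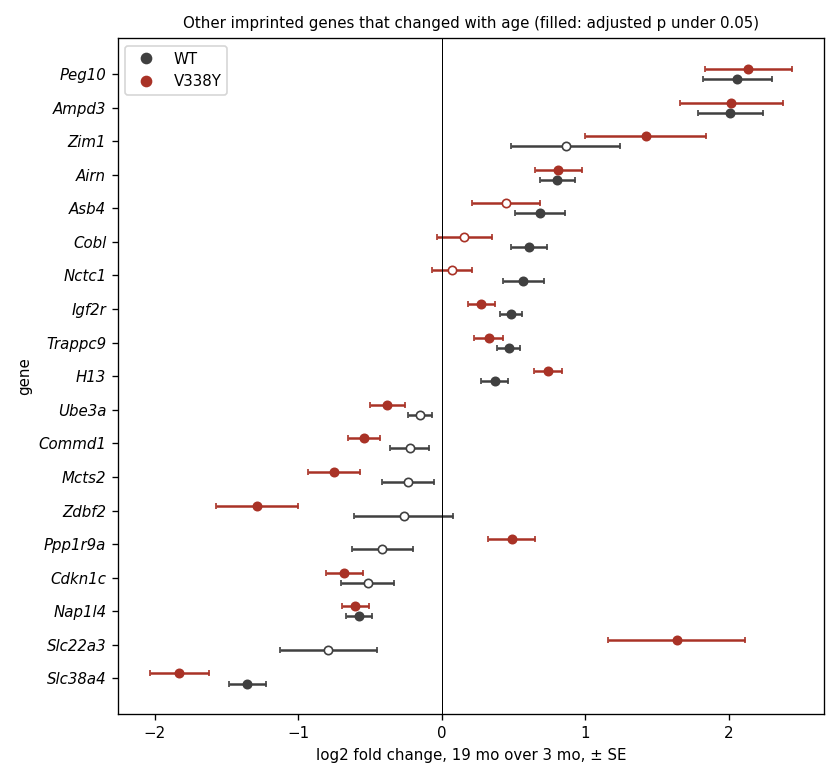
Log2 fold change from 3 to 19 mo with its SE (horizontal axis) for the 19 other imprinted genes that were tested in both genotypes and passed in at least one (vertical axis), with filled points for an edgeR adjusted p under 0.05. Peg10 and Ampd3 lie near 2 and Slc38a4 lies below -1 in both genotypes. Ppp1r9a and Slc22a3 lie on opposite sides of 0, with only the V338Y point filled, and the test of that difference did not pass.

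Genes of the IGF pathway around Igf2 were read from a list of 19. In wild-type mice 7 of 15 tested rose and none fell, where 18.3% of all genes were called higher and 36.2% in either direction. In V338Y mice 9 of 16 rose and 1 fell, where 24.4% of all genes were called higher and 46.9% in either direction. No test of the list was run. Igf1r, the receptor that IGF2 activates, went from 8.43 to 11.3 CPM in young to 18.7 to 30.5 CPM in old mice, with log2 fold changes of 1.55 ± 0.11 (edgeR adjusted p = 8.99e-05) and 1.23 ± 0.15 (edgeR adjusted p = 0.000241). Igf2r, an imprinted receptor that clears IGF2, rose by 0.49 and 0.28. Of the binding proteins that hold IGFs outside the cell, Igfbp3 rose by 1.64 and 1.63, and Igfbp5 rose by 1.37 and 0.75. The one that fell in V338Y mice was Igf2bp3, an RNA-binding protein of fetal tissue, at -1.99 ± 0.57 (edgeR adjusted p = 0.0158), from 0.575 to 2.01 CPM to 0.129 to 0.398 CPM. Its counts were low, 11, 6, 24 and 7 at 3 mo and 2, 4, 4 and 2 at 19 mo. It passed the count filter only through the young group, so only a fall could be called. Of a list of genes for juvenile growth and proliferation, 3 of 14 rose in wild-type mice, Mycn, Mki67 and Smo, and 6 of 15 rose and 1 fell in V338Y mice. These counts stand against 18.3% and 24.4% of all genes called higher.

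Markers of other cells were counted in the same mice, and their part in the results was not tested. Their counts stand against 36.2% of all genes called with age in wild-type and 46.9% in V338Y mice, and those for satellite cells, fibroblasts and adipocytes were near or below these shares. Genes that denervated fibers express rose in 7 of 10 tested in wild-type and 8 of 12 in V338Y mice, where 1 and 0 fell. Their summed level was 85.1 to 101 CPM in young and 118 to 126 CPM in old wild-type mice, and 80.9 to 126 CPM in young and 83.1 to 294 CPM in old V338Y mice. For leukocytes 5 of 12 and 9 of 13 markers rose, with sums of 230 to 324 and 333 to 382 CPM in wild-type and of 248 to 418 and 440 to 780 CPM in V338Y mice. The sum of 780 CPM, in V338Y mouse 5 at 19 mo, held 164 CPM of S100a8 and 190 CPM of S100a9. These were picked out for that mouse, and were at most 6.49 and 9.10 CPM in any other. For the endothelium 5 of 10 and 6 of 10 rose, and the sums went from 251 to 305 CPM in young to 363 to 587 CPM in old mice. For satellite cells and regeneration 4 of 13 rose in each genotype and 1 fell in V338Y mice, but most of the summed level of that list was Des, an abundant fiber gene at 1399 to 1864 CPM. For fibroblasts and fibro-adipogenic cells 2 of 13 rose and 3 fell in wild-type mice, and 0 rose and 3 fell in V338Y mice, with sums of 1080 to 2310 CPM over all mice. For adipocytes 1 of 14 rose and 3 fell in wild-type mice and 5 of 14 rose in V338Y mice, with sums of 1050 to 3590 CPM over all mice. Much of that sum was Car3, at 324 to 1956 CPM, and Lpl, at 195 to 982 CPM, both picked out for their level. For Schwann cells 3 of 8 and 6 of 8 rose, with sums of 53.3 to 68.2 CPM in young and 65.0 to 132 CPM in old mice. No marker of these lists was at 0 in all mice. Without V338Y mouse 5 at 19 mo, which held the highest denervation and leukocyte sums, Peg3, Plagl1 and Grb10 were all still called in V338Y mice. Grb10 was not called without mouse 3 or without mouse 4 of that group. Mice 2 and 4 also had denervation sums of 154 and 167 CPM, so leaving out a single mouse does not test the part of these cells.

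The genes most like each member were sought among 14128 by the mean absolute difference over the 15 mice of log2(CPM + 0.5) centered on each gene's own mean. The nearest to H19 was Mir675, at 0.09, which shares its locus, followed by Tlr13 at 0.26 and Plaur at 0.29. Grb10 was nearest to Zbtb21 (0.12), Cln6 and Greb1l, and Plagl1 to Magee1 (0.15), Erbb2 and B230216N24Rik. Peg3 was nearest to Tacc2 (0.20), Kcna6 and Shroom3, and Igf2 to Cdh23 (0.29), Car3 and Gnao1. Mirg was nearest to Bicdl1 (0.14), C1qtnf12 and Ccnyl1, Mest to Clybl (0.17), Ostm1 and Pars2, and Meg3 to ENSMUSG00000096952 (0.20), Hoxc10 and Izumo1. With a pseudocount of 2 CPM, 10 of these 24 genes were still among the nearest 3.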

How the data were processed

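RNA of quadriceps muscle was extracted with TRIzol and sequenced as single-end reads. The authors aligned the reads with STAR 2.4.2a and deposited expected counts per gene from RSEM as whole numbers, without normalization. The labels list CASAVA 1.8, bcl2fastq 1.8.4 and the builds GRCm38 and GRCh37 among the processing notes. Positions and exon lengths are from GENCODE on GRCm38, and sequences are from RefSeq tables on GRCm38.p6. The promoter table held windows for 9 of the 10 members and none for H19.

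Counts were normalized by TMM and compared with the quasi-likelihood test of edgeR 4.0.16 in R 4.3.3 (limma 3.58.1), with Benjamini-Hochberg adjustment over all tested genes and a threshold of 0.05. A gene was tested if 50% or more of the mice in either group had 10 counts or more. Each fit held the 2 groups of its comparison, and that of the interaction held all 15 mice. Fold changes are on edgeR's fitted scale. DESeq2 1.42.0 was run as an alternative, and edgeR was run again with a single change at a time. The changes were RLE size factors, no filter, a replicate block (mouse number) and one fit for every group. In further edgeR fits the 10 most counted genes were removed, or each mouse was left out in turn. The relation of 2 genes across mice was tested with 100000 shuffles within groups, two-sided. The code was tested on simulated data. No 2 of the 15 files were identical. Where mice of one group are separate animals, p-values measure the spread between them; intervals at 0 counts cover counting error only.

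The mouse numbers recur between groups. At 19 mo, deviations of same-numbered wild-type and V338Y mice correlated at 0.137 to 0.41 in 3 pairs. Those of differently numbered mice ran from -0.417 to 0.487 in 9 pairs, a range that holds the former. The means were 0.262 for same-numbered and -0.084 for differently numbered mice. A pairing at 19 mo is neither established nor excluded by 3 pairs. The blocked count of calls and the blocked values of the leading members are given for that comparison. The members and gene lists were chosen with earlier results of these data known. Named genes were the 10 members, the called genes of the list of other imprinted genes (at most 10 per comparison), at most 4 per other list, the 3 genes most like each member, and Mrps5, Xist and Ddx3y. Genes outside that rule are said to be so or are drawn only.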

Additional observations from a re-analysis of the deposited data

Results flagged for a closer look

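In groups of 4 mice, 27 combinations of gene and group were examined for a mouse that stood apart by Dixon's criterion at 95%, the gap to the nearest mouse over the group's range, and 2 were found. Chance gives about 1 in 20. Igf2 was at 11.5 CPM in V338Y mouse 1 at 3 mo, against 2.59 to 4.10 CPM in the other three, a gap of 0.831 of the range. Plagl1 was at 2.51 CPM in V338Y mouse 4 at 3 mo, against 1.53 to 1.70 CPM in the other three, a gap of 0.83 of the range, with 22 counts behind it.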

How the results depend on the processing

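Peg3 and wild-type Igf2 and Grb10 were called with age in every alternative, and 0 members were called between genotypes or for the interaction in any. Apart from the fits that each left out 1 mouse, the calls that changed were Plagl1 in wild-type mice, lost with a replicate block by mouse number (edgeR adjusted p = 0.0528), Grb10 in V338Y mice, lost with the block (edgeR adjusted p = 0.0859), and Igf2 in V338Y mice, gained with it (1.47, edgeR adjusted p = 0.00234). The block also turned the sign of H19 (-0.18) and Mest (0.24) with age in wild-type mice and of Grb10 (-0.030) between genotypes at 19 mo. With the block, a mouse whose number is missing from the other group does not bear on the difference. Age in wild-type mice then rested on mice 2 and 4, and age in V338Y mice on mice 2, 3 and 4. The genotype comparison at 19 mo rested on mice 2, 4 and 5. V338Y mouse 1 at 3 mo, high in Igf2, thus had no part in the blocked Igf2 value. What else moved these values was not tested. Same-numbered mice are known to share only a number. Outside the 19 mo comparison their deviations correlated at 0.003 to 0.021, -0.134 to 0.016 and -0.174 to 0.155.

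Over all genes, the block gave 2229 calls with age in wild-type mice against 4940, in a fit whose age difference rested on mice 2 and 4. Between genotypes at 3 mo no filter gave 33 and DESeq2 66 against 10. At 19 mo no filter gave 14, DESeq2 62 and the block 110 against 6. For the interaction they gave 5, 26 and 28 against 0, with 1361 genes at an unadjusted p under 0.05.

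With each mouse left out, genes called ran from 3 to 14 at 3 mo and 2 to 7 at 19 mo, and members called with age from 3 to 4 in wild-type and 1 to 3 in V338Y mice, the 1 being without V338Y mouse 2 at 3 mo. The correlation of H19 and Igf2 ran from -0.017 to 0.547, and that of Meg3 and Mirg from 0.580 to 0.796. Log2 fold changes that crossed 0 ran as follows. With age they were -0.51 to 0.17 for Mirg and -0.56 to 0.26 for Mest in wild-type mice, and -0.34 to 0.53 for H19 in V338Y mice. Between genotypes at 3 mo they were -0.29 to 0.032 for Meg3, -0.013 to 0.26 for Mirg and -0.021 to 0.26 for Plagl1. At 19 mo they were -0.20 to 0.82 for H19, -0.33 to 0.35 for Mirg, -0.18 to 0.59 for Mest, -0.16 to 0.33 for Peg3 and -0.0068 to 0.19 for Grb10. For the interaction they were -0.87 to 0.13 for H19, -0.64 to 0.10 for Meg3, -0.47 to 0.22 for Mirg, -0.67 to 0.14 for Mest and -0.14 to 0.35 for Plagl1. None of these was called. Igf2 ran from -1.62 to -0.62 for the interaction and from -0.69 to -0.34 between genotypes at 19 mo. With age in wild-type mice H19 ran from 0.04 to 0.82, called without mouse 2 at 19 mo (edgeR adjusted p = 0.0411), and Meg3 from 0.13 to 0.87. The low counts of Meg3, Mirg, Mest and Plagl1 limit their precision.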
